A study of Arabidopsis thaliana with 8 samples.

Results

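The 9 Arabidopsis genes described here act in the making of cuticular wax and of the very-long-chain fatty acids it is built from. They were chosen by locus identifier from results of these data over all 4 groups, so their own levels are given as a description with no test. They are KCS1 (AT1G01120), CER6 (AT1G68530), CER2 (AT4G24510), CER1 (AT1G02205), CER3 (AT5G57800), MAH1 (AT1G57750), CER4 (AT4G33790), WSD1 (AT5G37300) and MYB96 (AT5G62470), 9 of 33323 gene loci and of 64512 loci in the table. RNA was sequenced from wild-type seedlings of the Columbia ecotype, labelled as 7 days old, in 8 libraries that form 4 groups of 2. CTRL seedlings are the controls. Long heat stress, 30 h at 37 °C, was given to the LHS seedlings. Seedlings of LHSR12 had 12 h at 22 °C after such heat, and those of LHSR84 had 84 h. No transgene or mutation is named for any group, the source is seedlings with no tissue named, and the hour and seedling age at harvest are not stated, so effects of treatment, development and daytime cannot be told apart.

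Wax is made in epidermal cells. In the endoplasmic reticulum, an elongase complex lengthens acyl-CoAs, and its condensing enzyme, a KCS protein, sets which chains are accepted. The long chains then enter an alkane branch through CER1 and CER3, or an alcohol branch through the reductase CER4, whose alcohols WSD1 joins to fatty acids as wax esters. MYB96, a MYB transcription factor of the drought and abscisic acid response, is a known activator of wax genes.

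Values are scaled reads, that is, read counts divided by one factor per library. Gene loci drew between 18.9 M and 28.3 M reads (M for 1e6) in each of the 7 libraries for which reads were recovered. Within a group, both libraries differed by a median of 0.18 to 0.26 on the log2 scale, without regard to sign. Fold changes are on the scale of log2(value + 1). No source used here tells if libraries of one group came from separate cultures, so errors and p-values reflect the spread of these samples alone, which may be technical. In these bulk samples, fewer cells of a type and less RNA per cell cannot be told apart.

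At the end of the heat, the 2 LHS libraries lay below both CTRL libraries for 7 of the 9 genes and above them for MYB96, while MAH1 overlapped at 0. Of all 27638 loci tested, 37.9% lay below and 42.9% above in the same way, and since the genes were chosen from these values nothing is read from their count. The median log2 fold change of the 8 genes with a fit was −2.06 in LHS, against 0.09 over all loci. After 12 h of recovery the median was 0.09, with a range from −2.10 for CER4 to 2.17 for WSD1. After 84 h it was −0.18, with a range from −1.72 for CER4 to 3.35 for WSD1. MYB96 apart, the genes with a fit were lowest in LHS, and in recovery CER4 was at the low end and WSD1 at the high end at both times.

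**Figure D1:**
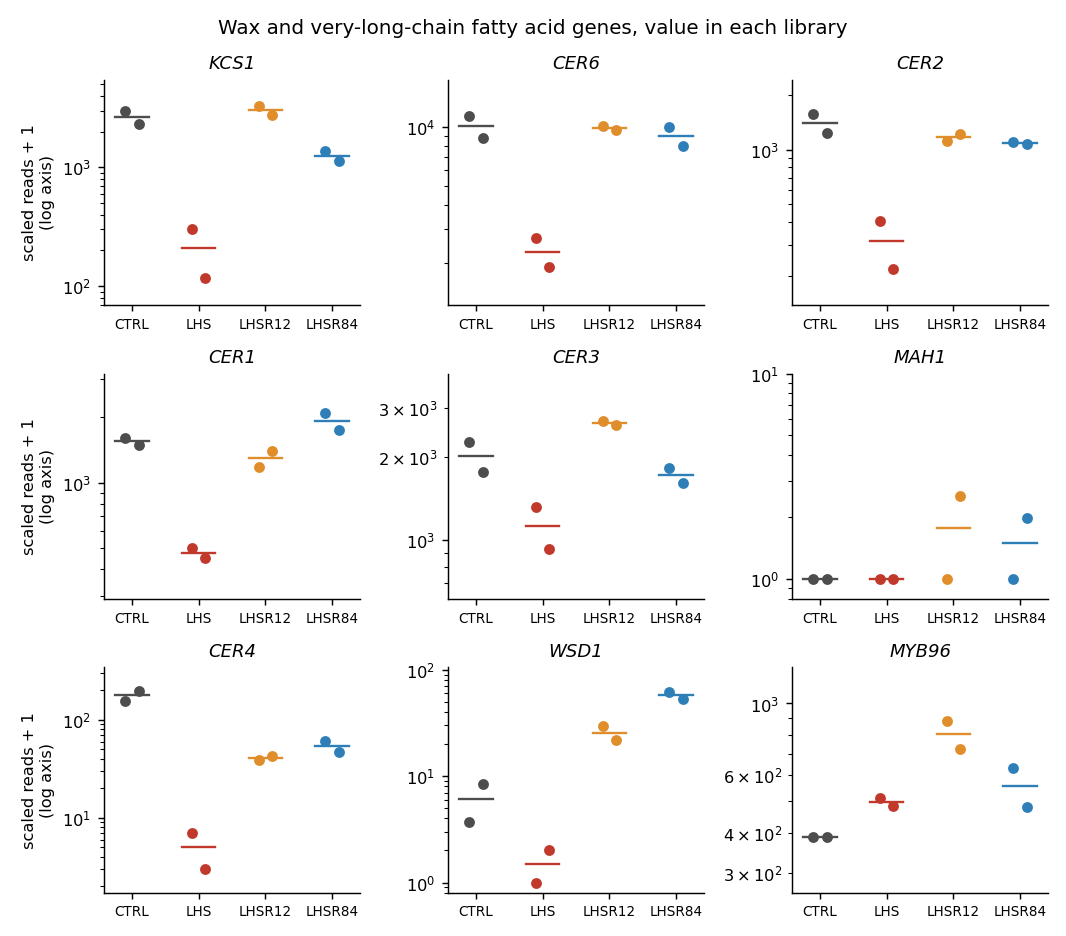
Scaled reads plus 1 on log axes for each of the 9 genes, with 1 point per library, a line at the group mean and colours for CTRL, LHS, LHSR12 and LHSR84. In 7 panels the 2 LHS libraries are the lowest, MYB96 is lowest in CTRL, and MAH1 is at 0 in 6 of 8 libraries.

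KCS1, a condensing enzyme of the elongase, lies on the minus strand at chr1:57164-59215 of TAIR10.1. It stood at 2972 and 2300 scaled reads in CTRL, 302 and 116 in LHS, 3297 and 2746 in LHSR12, and 1365 and 1120 in LHSR84. The ratio between the 2 LHS libraries is larger than that within any other group, and both are far below CTRL. The log2 fold change was −3.80 in LHS (SE 0.37), a level 13.9-fold lower, then 0.20 in LHSR12 and −1.08 in LHSR84. LHSR12 libraries overlapped CTRL, and LHSR84 libraries lay below both, so KCS1 was back at the CTRL range at 12 h and under it at 84 h. The LHS value was −3.11 without LHS replicate 2 and −4.49 without LHS replicate 1.

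CER6 (also KCS6), the condensing enzyme best known for wax of stems and pollen, lies on the minus strand at chr1:25712414-25715024. It had 11391 and 8747 scaled reads in CTRL, 2684 and 1908 in LHS, 10099 and 9610 in LHSR12, and 10001 and 8021 in LHSR84. Only the LHS libraries stand apart, and those of both recovery groups overlap CTRL. The log2 fold change in LHS was −2.14 (SE 0.20), and the values in recovery were −0.02 and −0.16.

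CER2, a protein of the acyltransferase-like BAHD family that acts with CER6 to reach the longest chains, lies on the plus strand at chr4:12660687-12662656. Its values were 1569 and 1226 in CTRL, 404 and 218 in LHS, 1117 and 1225 in LHSR12, and 1098 and 1068 in LHSR84. The higher LHSR12 library falls just short of the lower CTRL library, at 1225.0 against 1226.1 scaled reads. The log2 fold change was −2.22 in LHS (SE 0.25), −0.25 in LHSR12 and −0.36 in LHSR84. A stretch of 96 exonic bases of CER2, 5.90% of them, overlaps AT4G24520 on the other strand, and an annotated antisense long noncoding RNA, AT4G07275, overlaps 316. AT4G24520 stood on the other side of CTRL from CER2 in LHS, at 6629 and 7210 scaled reads against 4160 and 3673 in CTRL. The libraries are strand-specific per the labels, but whether counting used the strand is not stated.

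CER6 and CER2 had the most alike profiles of any pair among the 8 genes. Their root mean square distance over the 8 libraries, after centring each gene on its mean log2 value, was 0.16, against 0.328 for CER6 and CER1 as the next pair. KCS1 was at 0.785 from CER6, although both encode condensing enzymes. On levels per kb of annotated exon, KCS1 was 0.332 and 0.335 of CER6 in the CTRL libraries. The ratio was 0.143 and 0.0771 in LHS, 0.415 and 0.364 in LHSR12, and 0.174 and 0.178 in LHSR84. KCS1 was thus low relative to CER6 in LHS and in LHSR84, and above its CTRL ratio in LHSR12.

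Against the whole family of 21 KCS genes, CER6 made up 20.6% and 19.6% of the summed level per kb in CTRL. Its share was 17.3% and 15.6% in LHS, 27.0% and 26.3% in LHSR12, and 25.2% and 22.3% in LHSR84, with no overlap between CTRL and any other group. KCS1 made up 6.83% and 6.55% in CTRL, 2.48% and 1.2% in LHS, 11.2% and 9.58% in LHSR12, and 4.38% and 3.97% in LHSR84. The summed level of the family was 21197 and 17099 scaled reads per kb in CTRL, 5936 and 4677 in LHS, 14316 and 13977 in LHSR12, and 15177 and 13753 in LHSR84. A share can rise while the level does not: CER6 itself was at its CTRL level in LHSR12, while the family's sum was below it. KCS8, which is not among the 9 genes, went from 15.1% and 12.6% in CTRL to 1.90% and 2.02% in LHSR12.

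**Figure D2:**
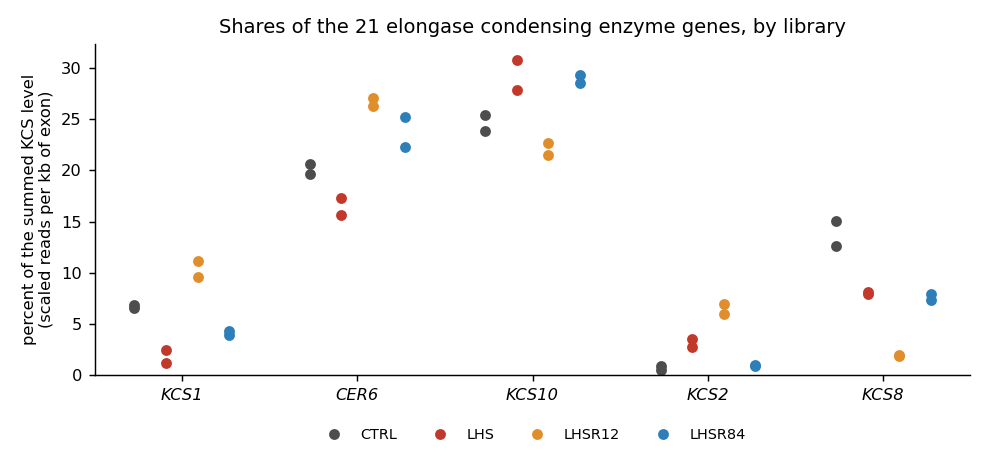
Percent of the summed level of 21 KCS genes (scaled reads per kb of exon) taken by KCS1, CER6, KCS10, KCS2 and KCS8, with 1 point per library and colours by group. CER6 is highest in LHSR12 at 27.0% and 26.3%, where KCS1 is also highest and KCS8 is lowest at 1.90% and 2.02%.

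CER1 and CER3 together form alkanes from the long acyl chains. CER1 lies on the plus strand at chr1:418416-422579 and had 1601 and 1498 scaled reads in CTRL, 497 and 448 in LHS, 1186 and 1406 in LHSR12, and 2104 and 1754 in LHSR84. LHS libraries were lowest and LHSR84 libraries highest, and no 2 groups overlapped. Relative to CTRL, the log2 fold change was −1.71 in LHS (SE 0.13), −0.26 in LHSR12 and 0.31 in LHSR84.

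CER3 lies on the plus strand at chr5:23420184-23424117 and had 2257 and 1753 scaled reads in CTRL, 1319 and 926 in LHS, 2693 and 2588 in LHSR12, and 1822 and 1612 in LHSR84. Its fall in LHS was the smallest of the 7, at −0.85 (SE 0.18). In LHSR12 both libraries were above CTRL, with a log2 fold change of 0.41, and in LHSR84 they overlapped CTRL. CER3 therefore peaked at 12 h and CER1 at 84 h.

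The balance of the pair moved with the group. CER1 stood at 0.511 and 0.616 of CER3 per kb of exon in CTRL, 0.271 and 0.349 in LHS, 0.317 and 0.392 in LHSR12, and 0.832 and 0.784 in LHSR84. Per kb of the longest coding sequence, which leaves out the long annotated untranslated exons of CER1, the same ratios were 0.712 and 0.857, 0.378 and 0.486, 0.442 and 0.545, and 1.16 and 1.09. On both scales LHS and LHSR12 libraries lie below both CTRL libraries and LHSR84 libraries above them. CER1 has a neighbouring relative, AT1G02190, and the handling of multiply matching reads is not given in the sources used here.

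MAH1 (also CYP96A15), a cytochrome P450 that hydroxylates alkanes in stem wax, lies on the minus strand at chr1:21383812-21385709. It had 3 reads in the 7 libraries with recovered reads, found in 1 LHSR12 and 1 LHSR84 library at 1.5 and 1.0 scaled reads, and was at 0 in the other 6. A count of 0 allows up to 3 reads, or 2.30 to 4.06 scaled reads a library, so no difference was detectable at this depth. It did not reach the mean of 1 needed for a fit.

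CER4, the reductase that forms primary alcohols, lies on the minus strand at chr4:16204096-16207956. It had 154 and 197 scaled reads in CTRL, 6.0 and 2.0 in LHS, 38.3 and 41.8 in LHSR12, and 60.3 and 45.4 in LHSR84. All 4 recovery libraries lay above LHS and well below CTRL. Log2 fold changes were −5.25 in LHS (SE 0.43), −2.10 in LHSR12 and −1.72 in LHSR84. In reads, 2 in LHS replicate 2 stood against 298 in the 2 CTRL libraries, a level 88-fold lower with an exact 95% counting interval of 24.1 to 730. This interval covers counting error only, and the ratio leaves out LHS replicate 1, the higher of the LHS libraries. The fit over both LHS libraries gave a level 38.1-fold lower. The fitted LHS value of CER4 was −4.65 without LHS replicate 2 and −5.86 without LHS replicate 1.

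Among the 8 alcohol-forming reductase genes (CER4 and 7 FAR genes), CER4 held 11.8% and 12.2% of the summed level per kb in CTRL. It held 1.54% and 0.505% in LHS, 1.71% and 1.77% in LHSR12, and 4.90% and 4.27% in LHSR84. The sum of the family in LHSR12, 1142 and 1208 scaled reads per kb, was above the 669 and 826 of CTRL. FAR5, a reductase linked to suberin alcohols, made up 32.0% and 29.9% of it, against 20.2% and 19.7% in CTRL.

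WSD1, the wax ester synthase, lies on the plus strand at chr5:14767426-14770396 and was a low gene in every group. It had 2.7 and 7.5 scaled reads in CTRL, 0 and 1.0 in LHS, 28.3 and 20.9 in LHSR12, and 60.3 and 52.3 in LHSR84. No 2 groups overlapped, and both recovery groups were above CTRL. In reads, the 9 of CTRL stood against 64 in LHSR12 and 104 in LHSR84, ratios of 4.57 (95% counting interval 2.26 to 10.5) and 10.4 (5.26 to 23.3). LHS replicate 2 had 1 read, and its level relative to CTRL was 5.31-fold lower, with an interval of 0.736 to 233. That interval rests on this 1 library, so by itself it does not decide whether LHS differed. It leaves out LHS replicate 1, whose value of 0 means no read, so it is wider than a count over both LHS libraries would give. Both LHS libraries lay below both CTRL libraries, and the fit over both gave a log2 fold change of −1.98 (SE 0.56). Against the 1 read of LHS replicate 2, LHSR12 was 24.3-fold higher (4.21 to 974). The log2 fold changes from CTRL were 2.17 in LHSR12 and 3.35 in LHSR84 (SE 0.56). Leaving out CTRL replicate 1 gave 1.57 and 2.75, while leaving out replicate 2 of CTRL gave 2.77 and 3.94. WSD1 remained a small part of its family of 11 genes, with 0.164% and 0.470% of the summed level per kb in CTRL and 4.06% and 3.39% in LHSR84.

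CER4 and WSD1, which act one after the other, both lay higher at 12 h than in LHS. From 12 h to 84 h, WSD1 rose by 1.17 on the log2 scale (SE 0.56). CER4 differed by 0.38 (SE 0.43), which is less than its error. CER4 was below CTRL and WSD1 above it at both times. At 84 h their levels per kb were 27.0 ± 5.38 and 27.3 ± 2.74 (SD, n = 2 each), within the spread of each other. In CTRL they were 89.9 ± 15.5 and 2.48 ± 1.65.

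MYB96 lies on the minus strand at chr5:25078991-25081141. It had 387 and 387 scaled reads in CTRL, 512 and 482 in LHS, 885 and 722 in LHSR12, and 632 and 479 in LHSR84. All 6 heat and recovery libraries were above CTRL, and LHSR12 was the highest group. The log2 fold change was 0.36 in LHS, 1.04 in LHSR12 and 0.51 in LHSR84 (SE 0.16). In LHS it was the only one of the 8 with a positive value, and in LHSR84 the lower library was below that of either LHS library.

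**Figure D3:**
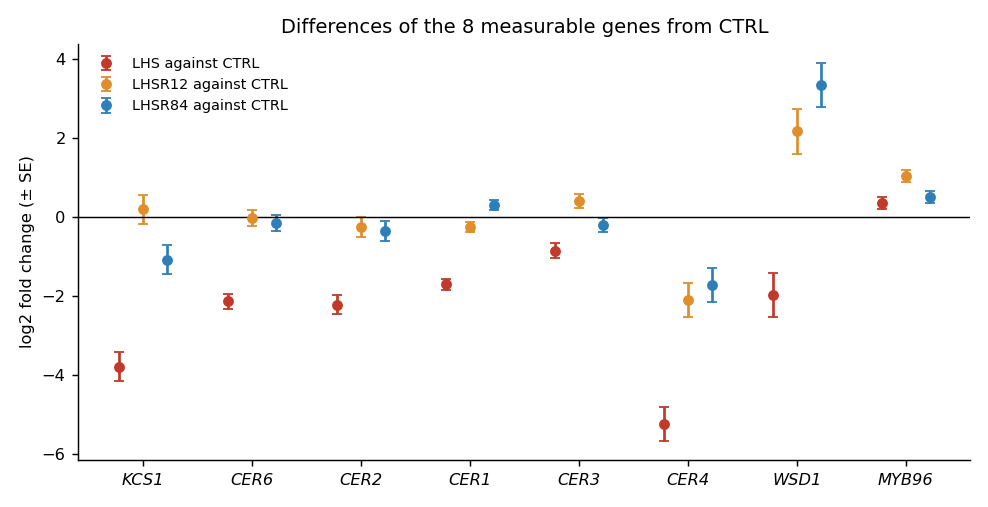
Log2 fold change from CTRL with its standard error for the 8 genes with a fit, with colours for LHS, LHSR12 and LHSR84. LHS values run from −5.25 for CER4 to 0.36 for MYB96, and the 2 recovery groups straddle 0, with WSD1 highest at 2.17 and 3.35.

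Between the end of heat and 12 h of recovery, the LHSR12 libraries lay above both LHS libraries for 8 of the 9 genes, as did those of 40.8% of all loci, and those of 41.2% lay below. The log2 differences ran from 0.69 for MYB96 to 4.16 for WSD1, with 4.0 for KCS1 and 3.15 for CER4. The order of these 3 was not fixed, as WSD1 was at 6.19 with a pseudocount of 0.1 and at 3.65 without LHS replicate 1. KCS1 was at 3.31 without LHS replicate 2 and 4.69 without LHS replicate 1, and CER4 at 2.55 and 3.76. Against CTRL, LHSR12 libraries lay below for CER2, CER1 and CER4 and above for CER3, WSD1 and MYB96, beside 31.7% and 38.7% of all loci. In LHSR84 those below CTRL were KCS1, CER2 and CER4 and those above were CER1, WSD1 and MYB96, beside 25.8% and 25.3%. From 12 h to 84 h, CER1, CER4 and WSD1 lay higher and KCS1, CER2, CER3 and MYB96 lower, beside 32.2% and 39.7% of all loci. Nothing is read from these counts either, and the comparisons with CTRL share its 2 libraries.

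In levels per kb of exon, CER6 led in every group. The order in CTRL was CER6 (3856 ± 716), KCS1 (1285 ± 232), CER2 (859 ± 149), CER3 (774 ± 138), CER1 (431 ± 20.4), MYB96 (217 ± 0.0624), CER4 (89.9 ± 15.5), WSD1 and MAH1 (SD, n = 2). CER2 and CER3 did not differ beyond their spread. In LHS the order after CER6 (879 ± 210) was CER3 (434 ± 107), MYB96 (278 ± 11.9), CER2 (191 ± 80.6), CER1 (132 ± 9.53) and KCS1 (102 ± 64.4), with the libraries of the last 3 overlapping. In LHSR12 KCS1 was again second (1472 ± 190), and in LHSR84 CER2 (666 ± 12.8), CER3 (663 ± 57.4) and KCS1 (605 ± 84.5) did not differ beyond their spread, nor did KCS1 and CER1 (537 ± 69.0).

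The genes with the most alike profiles were sought among 9184 other gene loci with a symbol and a mean of at least 10, by the same distance over 8 libraries. For CER2 the nearest was LTPG2, a lipid transfer protein gene, at 0.09, and for CER6 it was the potassium channel gene KT1 at 0.12. CER1 was nearest to RABA6a at 0.08, CER3 to XBAT32 at 0.11, MYB96 to the auxin transporter gene PIN3 at 0.08 and KCS1 to scpl28 at 0.19. CER4 and WSD1 had no close profile, with nearest distances of 0.36 for CYP706A7 and 0.60 for RK1.

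To show the motif that the closest pair, CER6 and CER2, shares with CER4 and WSD1, the 300 bases before the annotated start of these 4 genes are given, from the RefSeq TAIR10.1 sequence and 5′ to 3′ on the gene's strand. Capitals mark AC elements, a motif bound by several MYB factors, searched on both strands in 4 forms. These were ACCAAAC, the form matched in CER6, then ACCAACC, matched in WSD1, then ACCTAAC, matched on the other strand in CER2, and lastly ACCTACC, matched on the other strand in CER4. The windows are chr1:25715025-25715324 on the minus strand for CER6, chr4:12660387-12660686 on the plus strand for CER2, chr4:16207957-16208256 on the minus strand for CER4 and chr5:14767126-14767425 on the plus strand for WSD1.
CER6: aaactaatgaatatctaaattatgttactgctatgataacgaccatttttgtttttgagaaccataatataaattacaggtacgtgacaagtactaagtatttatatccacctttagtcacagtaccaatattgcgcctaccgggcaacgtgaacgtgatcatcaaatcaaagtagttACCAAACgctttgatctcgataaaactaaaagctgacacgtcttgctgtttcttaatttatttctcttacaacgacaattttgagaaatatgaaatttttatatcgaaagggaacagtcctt
CER2: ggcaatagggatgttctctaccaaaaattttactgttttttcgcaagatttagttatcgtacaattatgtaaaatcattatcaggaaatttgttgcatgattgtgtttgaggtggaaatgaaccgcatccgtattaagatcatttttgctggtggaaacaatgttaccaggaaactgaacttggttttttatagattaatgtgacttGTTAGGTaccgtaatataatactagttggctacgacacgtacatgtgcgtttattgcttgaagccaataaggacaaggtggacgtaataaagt
CER4: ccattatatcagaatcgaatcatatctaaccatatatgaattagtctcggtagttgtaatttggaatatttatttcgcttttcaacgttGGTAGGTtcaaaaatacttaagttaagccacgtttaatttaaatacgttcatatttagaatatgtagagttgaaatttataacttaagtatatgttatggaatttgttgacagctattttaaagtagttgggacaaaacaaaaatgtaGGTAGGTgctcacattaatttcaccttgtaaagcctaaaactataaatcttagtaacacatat
WSD1: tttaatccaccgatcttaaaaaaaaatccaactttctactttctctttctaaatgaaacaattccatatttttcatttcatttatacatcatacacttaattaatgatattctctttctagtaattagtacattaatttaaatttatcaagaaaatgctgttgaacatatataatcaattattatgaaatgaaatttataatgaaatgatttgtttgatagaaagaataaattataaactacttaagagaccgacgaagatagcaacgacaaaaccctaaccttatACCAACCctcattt

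These were the 4 of the 9 promoters with an AC element, which 15.9% of all 27443 protein-coding promoters of this length held. The first base of the match was 122 bases before the start in CER6, 93 in CER2, 211 and 63 in CER4 and 14 in WSD1. Of the other motifs, the L1 box of epidermal promoters (TAAATGCA or TAAATGTA) was found only in MYB96, beside 5.51% of all promoters, and the evening element (AAAATATCT) only in CER1, beside 2.79%. The heat shock element (GAANNTTC), the G box (CACGTG) and the GCC box (GCCGCC) were in none of the 9, and in 11.5%, 7.09% and 2.26% of all promoters. No match of one motif overlapped another in the 9 windows. A match says only that the letters are there.

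The other genes of these pathways were taken from lists of 105 genes, of which 100 passed the filter on low values. These were tested with limma over all 27638 loci and called at an adjusted p below 0.05. In LHS against CTRL, 75 were lower and 11 higher, beside 31.1% lower and 35.4% higher among all loci, with a median log2 fold change of −1.46 (−1.45 with genes at 0 placed at their bound, 0.09 over all loci). In LHSR12 33 were lower and 21 higher, beside 20.0% and 24.8%, and in LHSR84 8 were lower and 3 higher, beside 4.87% and 8.59%. From LHS to LHSR12, 64 were higher and 9 lower, beside 31.1% and 31.1%. From LHSR12 to LHSR84, 34 were higher and 28 lower, beside 16.5% and 19.5%. Counts that leaving out a library moved by over 1.5 times are the 3 and 8 of LHSR84 (0 to 3 and 1 to 13), the 11 of LHS (7 without LHS replicate 2), the 9 from LHS to LHSR12 (5 without LHS replicate 2), the 34 (19 without LHSR84 replicate 1) and the 28 (15 to 18 without any of the 4 recovery libraries).

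**Figure D4:**
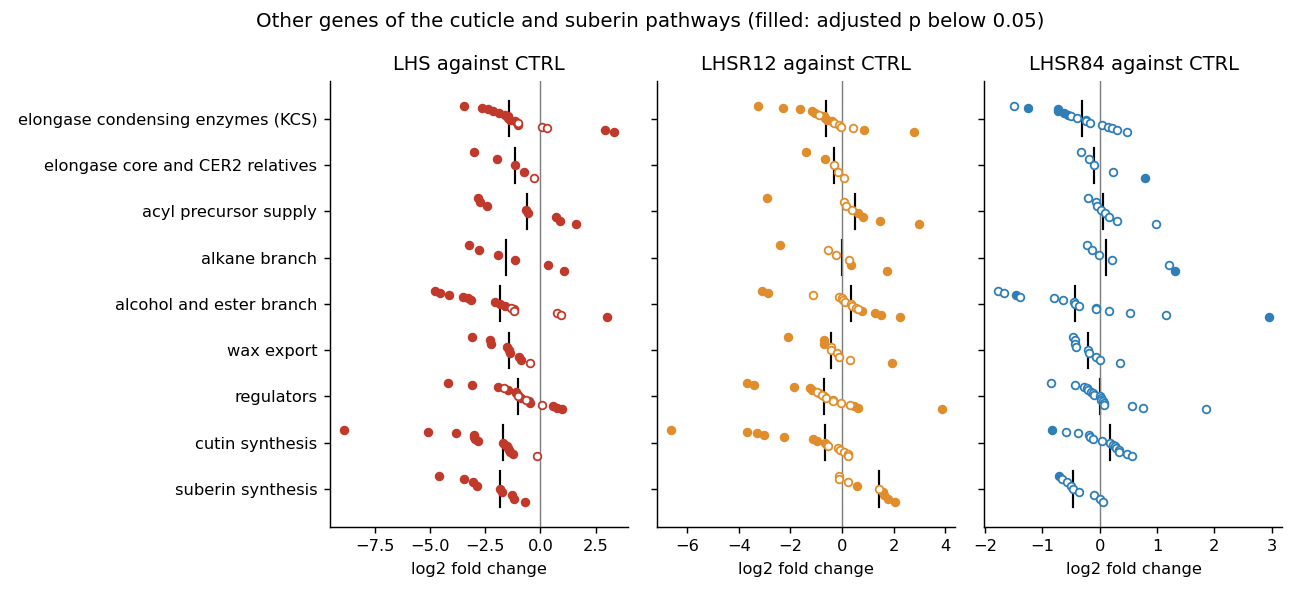
Log2 fold change from CTRL of the other pathway genes, by list, in LHS, LHSR12 and LHSR84, with 1 point per gene, filled where the adjusted p was below 0.05, and a black line at each list's median. Most points are below 0 in LHS, and in LHSR12 cutin genes lie mostly below and suberin genes mostly above it (genes at 0 in a group are drawn at their fitted value, which is no bound).

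Beside KCS1 and CER6, 11 of 16 other tested KCS genes were lower in LHS and 2 higher. KCS19 fell by 3.45 on the log2 scale (limma adjusted p = 5.1e-07) and KCS8 fell 6.18-fold (limma adjusted p = 4.96e-06), while KCS17 rose from 50.1 and 49.3 to 485 and 554 scaled reads (limma adjusted p = 4.13e-05). The other riser, KCS15, is outside the naming rule and was chosen after its values were seen (0 and 1.07 in CTRL, 8.01 and 12.2 in LHS). Without CTRL replicate 1 or LHS replicate 2 the count was 1. In LHSR12, 9 were lower and 2 higher. KCS2, whose product acts mainly in suberin and root lipids, rose from 221 and 328 to 2028 and 1720 (limma adjusted p = 6.58e-05), and KCS20 is a close copy of it in sequence, so that reads may be shared. KCS8 and KCS5 were 9.45-fold and 4.92-fold below CTRL, unlike KCS1 and CER6, whose libraries overlapped CTRL. Of the 5 elongase core genes and CER2 relatives, 4 were lower in LHS, and CER26, a relative of CER2, fell 8.16-fold (limma adjusted p = 1.3e-05). In LHSR12 2 were lower, CER26 and the dehydratase gene PAS2.

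In acyl supply, 5 of 8 genes were lower in LHS and 3 higher. LACS1, a long-chain acyl-CoA synthetase of wax synthesis, had 4347 and 3850 scaled reads in CTRL, 713 and 459 in LHS, 488 and 595 in LHSR12, and 4021 and 4329 in LHSR84. It was 7.14-fold lower in LHS (limma adjusted p = 5.18e-06) and still 7.58-fold lower in LHSR12, where the libraries of CER6 and KCS1 overlapped CTRL. LACS2, which acts in cutin synthesis, was 6.60-fold lower in LHS and back at 1811 and 1996 in LHSR12, against 1861 and 1757 in CTRL. The acetyl-CoA carboxylase gene ACC2 rose in both, 3.10-fold and 7.98-fold, from 321 and 272.5 scaled reads in CTRL. It lies next to its near copy ACC1, at 6429 and 6041.5 in CTRL, and reads may be shared.

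Of the 9 wax export genes, 8 were lower in LHS (limma) and 8 higher in LHSR12 than in LHS. The transporter gene ABCG12 (CER5) went from 4490 and 3289 in CTRL to 1549 and 1141 in LHS and 3486 and 3653 in LHSR12, and LTPG2 was 4.84-fold lower in LHS (limma adjusted p = 5.56e-05). ABCG12 was not in the set of genes named by rule and was chosen after its values were seen. In the alcohol and ester branch, 10 of 15 tested genes were lower and 1 higher in LHS, with a median of −1.82 (−1.60 at bounds). AT2G38995, an acyltransferase gene of the WSD1-like family, had 125 and 141 in CTRL, 7.0 and 3.0 in LHS, 11.5 and 18.6 in LHSR12, and 280 and 316 in LHSR84. It was still 8.53-fold below CTRL in LHSR12 (limma adjusted p = 0.00039), when WSD1 was already above. FAR4 and FAR5, which lie close together and may share reads, were 2.81-fold and 2.45-fold above CTRL in LHSR12, where CER4 was at −2.10 on the log2 scale. In the alkane branch 4 of 6 genes were lower in LHS. Among them were AT2G37700, at 9.45-fold lower (limma adjusted p = 0.00333), and CB5-C, a cytochrome b5, at 6.83-fold lower (limma adjusted p = 0.000162). In LHSR12 CB5-C was on the other side, 3.37-fold above CTRL (limma adjusted p = 0.0041), a call lost without either LHSR12 library. The 2 genes of this branch not lower in LHS, AT1G02190 and CB5-E, were called higher there, but each lost its call in several settings. Among these were a pseudocount of 0.1 and the replicate block for AT1G02190, and no filter and TMM scaling for CB5-E. Both also lost it without either LHS library or CTRL replicate 2.

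Of 17 regulators, 10 were lower and 3 higher in LHS. MYB94 and MYB30, MYB factors that also activate wax genes, were 2.17-fold and 2.06-fold lower (limma adjusted p = 0.000482 and 0.000501), the opposite side of CTRL from MYB96. Both were chosen after their values were seen. DEWAX, a repressor of wax genes, had 5413 and 2470 in CTRL, 328.5 and 538.5 in LHS, 271 and 423 in LHSR12, and 3540 and 3944 in LHSR84. It was 8.68-fold lower in LHS and 10.8-fold lower in LHSR12 (limma adjusted p = 0.000113 and 0.000152). WRI4, an activator of stem wax genes, was 18.4-fold lower in LHS (limma adjusted p = 2.23e-05), with CTRL libraries at 849 and 324. In LHSR12, MYB41, a factor able to switch on suberin synthesis, rose from 14.9 and 19.3 to 303 and 222 (limma adjusted p = 3.67e-05).

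Cutin and suberin are polyesters that share precursors with wax, cutin under the wax and suberin mainly in roots. Of 15 cutin genes 14 were lower in LHS and 8 lower in LHSR12, with medians of −1.71 and −0.68. AT5G33370, a GDSL-like lipase gene, went from 543 and 430 scaled reads in CTRL to 0 in both LHS libraries, at least 160-fold lower (floor of 3 reads per library), and was at 0.766 and 12.4 in LHSR12 and 607 and 605 in LHSR84. From LHS to LHSR12, 11 cutin genes were higher, or 7 without LHSR12 replicate 2. All 9 suberin genes were lower in LHS and higher in LHSR12 than in LHS, with medians of −1.84 and 2.86. In LHSR12 5 of the 9 were above CTRL, or 3 without LHSR12 replicate 1, among them the transporter gene ABCG6 at 4.19-fold (limma adjusted p = 0.00109) and the acyltransferase gene GPAT7 at 3.46-fold (limma adjusted p = 0.00221). From LHSR12 to LHSR84, 8 suberin genes were lower, or 4 without either LHSR12 library or LHSR84 replicate 2. The wax genes had a median of 0.09 in LHSR12, between those of cutin and suberin, and the difference between lists was not tested.

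**Figure D5:**
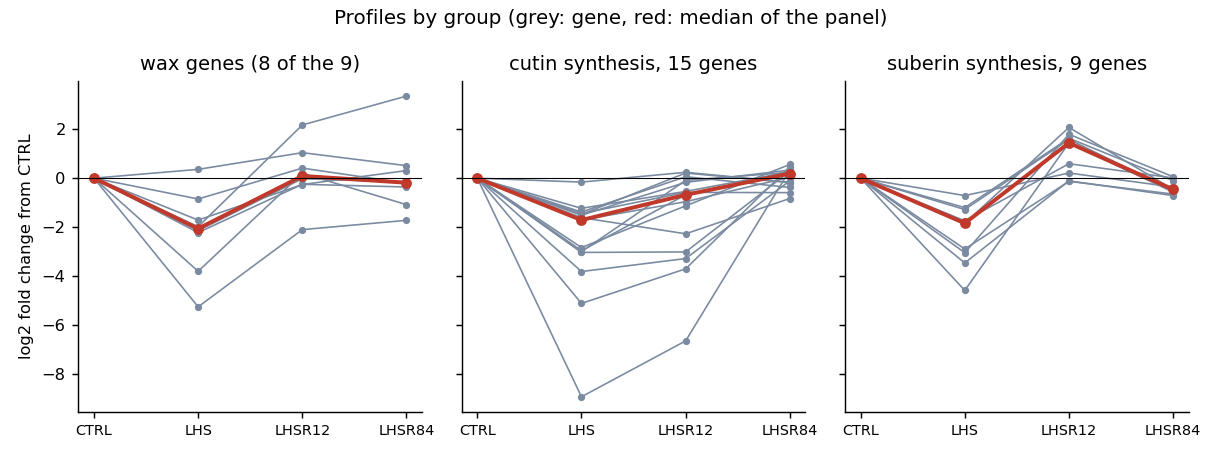
Log2 fold change from CTRL in LHS, LHSR12 and LHSR84 for the 8 wax genes with a fit, 15 cutin genes and 9 suberin genes, with grey lines for genes and a red line for the median. The medians in LHSR12 are 0.09, −0.68 and 1.44, and all 3 are below 0 in LHS.

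Markers of the epidermis, the cell layer that makes wax, matched the wax genes only in part. Their median log2 fold change from CTRL was −1.42 in LHS and −1.12 in LHSR12, against −2.06 and 0.09 for the 8 fitted wax genes. The median difference between LHS and LHSR12 was 0.25 for the markers and 2.05 for those wax genes. Of 7 markers, 5 were lower in LHS and 5 in LHSR12 (limma, adjusted p below 0.05), beside 31.1% and 20.0% of all loci. ATML1 and PDF2, homeodomain factors of the epidermis, were 3.45-fold and 4.16-fold lower in LHS. No marker was near 0, and the lowest value was 66.6 scaled reads for HDG11. The summed level was 23015 and 23616 in CTRL, 13830 and 11786 in LHS, 13695 and 13639 in LHSR12, and 22871 and 21483 in LHSR84. LTP1, a lipid transfer protein gene, made up most of it in LHS, at 9706 and 7728. Without LTP1, a sum added after the values were seen, it was 12855 and 12167 in CTRL, 4124 and 4058 in LHS, 5980 and 5874 in LHSR12, and 11027 and 10678 in LHSR84. From LHS to LHSR12, 3 markers rose, ATML1 by 0.65, PDF2 by 0.94 and HDG2 by 0.54 on the log2 scale (limma, adjusted p below 0.05). Both sums in LHSR12 were below CTRL, as were CER2, CER1 and CER4. KCS1 and CER6 overlapped CTRL there, and CER3, WSD1 and MYB96 lay above it. The part of these markers in the results was not tested.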

How the data were processed

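RNA from 8 libraries was measured, 2 in each of 4 groups. Per the labels' protocols, libraries were strand-specific and made from total RNA extracted with TRIzol. The submitters' processing notes list HTSeq 0.9.1, STAR 2.5.3a, CASAVA, DESeq2 1.14.1 and the TAIR10 build, without their roles. The table deposited by the authors holds one signal value per locus and library, here called scaled reads. In each library 100% of nonzero values were whole multiples of one step (tolerance 0.001), and from that step whole reads were recovered for 7 libraries. LHS replicate 1 was left out of this recovery because its step lay close to 1. Its values were whole multiples of that step too, so leaving it out was a choice and not a limit of the data. Its values were not whole numbers, such as 302.4 for KCS1, so the step itself was not 1. This library is in no read ratio, counting interval, edgeR fit or DESeq2 fit.

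The members and lists were chosen with earlier results of these data known. Values were fitted in R 4.3.3 with limma 3.58.1 (trend) on log2(value + 1), with 8 libraries in one fit and a minimum mean of 1, which left 27638 loci. P-values are two-sided, with Benjamini-Hochberg adjustment over all loci, called below 0.05. The pathway genes named are, per list and comparison, up to 2 called genes with the largest rise and 2 with the largest fall at a mean of at least 10. Exceptions are marked in the text, and the epidermis markers and the genes set beside a member in its family are named apart from this rule. As alternatives, edgeR 4.0.16 and DESeq2 1.42.0 ran on the recovered reads of 7 libraries, where LHS is 1 library. In LHS against CTRL edgeR called 15106 loci and DESeq2 13936. Further alternatives were a pseudocount of 0.1, no filter, the 2 groups alone, TMM scaling, the replicate number as a block and each library left out. Only the limma fit was tried on simulated data, with known rises in LHS against CTRL.

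Read ratios have exact conditional binomial intervals (95%), and a floor is 3 reads a library, both for counting error only. Positions, exon lengths and promoters are from TAIR10.1, matched by locus identifier. Levels per kb divide by the union of annotated exons.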

Additional observations from a re-analysis of the deposited data

How the results depend on the processing

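Of 600 alternative values of the fold changes of the wax genes, 586 moved by less than the spread between replicates and 14 by more. Only the pseudocount, TMM scaling, edgeR and DESeq2 could move a value by more. Leaving out 1 of 2 libraries always shifts it by less than that spread. No filter, the 2 groups alone and the replicate block leave it as it is. The 586 is therefore no measure of stability. The largest moves in LHS were those of CER4 (−6.38 with edgeR and −6.42 with DESeq2), KCS1 (−4.53 with edgeR) and WSD1 (−3.79 with a pseudocount of 0.1). From LHS to LHSR12 they were 4.24 and 4.28 for CER4, 4.72 for KCS1 and 6.19 for WSD1 in the same fits. The edgeR and DESeq2 fits also lack LHS replicate 1, so their moves mix the method with a lost library. For KCS1 and CER4, the limma fit without that library moved the same way, as given above. The sign of CER6 in recovery changed among the alternatives (−0.21 to 0.17 in LHSR12, −0.35 to 0.03 in LHSR84 and −0.30 to 0.02 between them). Counts of other pathway genes called stayed within 1.5 times in 123 of 150 cases. Beside libraries left out, the exceptions were the genes higher in LHS (7 with edgeR and 6 with DESeq2, against 11), higher in LHSR84 (5 with edgeR, against 3), lower in LHSR84 (5 with no filter, against 8) and lower in LHSR12 than in LHS (5 with DESeq2, against 9). The cause was not tested. With 1 library left out, where a lone library is taken to vary like the other groups, the count ranged from 7 to 10 for genes higher in LHS. In LHSR84 it ranged from 0 to 3 for higher and from 1 to 13 for lower genes. From LHS to LHSR12 it was 5 to 9 for lower genes, and from LHSR12 to LHSR84 it was 19 to 34 for higher and 15 to 28 for lower genes. Libraries with equal replicate numbers did not deviate together (r from −0.06 to 0.04 between groups). This does not tell whether they shared a culture or a batch. With the replicate number as a block, 10 genes were higher and 75 lower in LHS, and 21 and 36 in LHSR12. TMM scaling shifted the median of all loci by at most 0.04. Depth limits MAH1, with 3 reads in 7 libraries, and WSD1, with 1 read in LHS replicate 2.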
